A study of Mus musculus with 2 samples.

Results

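The genes described here encode the tubulins, the neurofilaments and the proteins that bind, cap or take apart microtubules. They were chosen by symbol from the deposited count tables, and 51 of the 32532 symbols listed belonged to them. Dorsal striatum was taken from mice of the Drd1-TRAP line CP73 after long-access sessions in which they gave themselves cocaine by vein, and 1 library came from the escalating group and 1 from the nonescalating group. All mice carried the Drd1-EGFP/Rpl10a transgene, an EGFP-tagged ribosomal protein made in cells that express the dopamine receptor Drd1, on an FVB/N and Swiss Webster background bred to C57BL/6. The titles name both libraries as input, taken here as RNA of the whole dissected tissue. Any cell type in it may contribute, though not to the same extent in each library. The labels give neither the ages of the mice nor how many animals went into a library. Both groups had taken cocaine, and no drug-naive library was analysed here.

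Microtubules are hollow polymers of alpha and beta tubulin dimers that fill axons and dendrites and serve as the tracks of transport. Several genes encode each subunit, and their products differ mainly at the acidic tail to which other proteins bind. Gamma tubulin seeds new polymers, end-binding proteins mark their growing tips, structural microtubule-associated proteins (MAPs) bundle and stabilise them, and stathmins hold free tubulin or promote disassembly. Neurofilaments are the intermediate filaments of neurons and set the calibre of axons. Collapsin response mediator proteins (CRMPs) and doublecortin-like proteins act on microtubules in growing and migrating neurons.

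In the escalating library 9548358 reads had been assigned to genes, against 9376097 in the nonescalating library. A single noncoding symbol, AK140265, took 9.66% of them in the escalating library and 24.1% in the nonescalating library, so library sizes were scaled with TMM factors, and CPM below is relative to the scaled size. Reads that fell on more than 1 gene made up 8.06% of the listed total in the escalating library, against 18.9% in the nonescalating library. Genes of striatal projection neurons were abundant in both, with 15 of 15 markers read and a summed level of 9226 CPM in the escalating library and 8451 CPM in the nonescalating library. Their median log2 ratio of escalating over nonescalating was -0.14, with 6 above 0 and 9 below. Of these markers 1 was called higher and 2 lower. Glial genes differed widely between the libraries: 15 of 15 astrocyte and 13 of 13 microglial markers were called lower in the escalating library. Summed astrocyte markers were at 2690 CPM in the escalating library and 16809 CPM in the nonescalating library, and microglial markers at 35.4 CPM and 1575 CPM in the same order, with Trem2 at 0 in the escalating library. Most of the astrocyte sum came from Slc1a2, with 15371 of 29105 counts in the escalating library and 109677 of 139070 in the nonescalating library. The median log2 ratio of the astrocyte markers was -1.74. In bulk tissue, fewer cells of a type and less RNA per cell cannot be told apart. With 1 library per group, neither can a difference in how the input was prepared.

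Since there was 1 library per group, differences could not be set against a spread between replicates, no test could be run, and every ratio below describes 2 libraries rather than 2 conditions. Called genes are those whose CPM differed at least 1.5-fold, with a 95% interval (exact, Clopper-Pearson, on how the counts split) that left out a ratio of 1. These intervals cover counting error only. Of the 51 genes, 45 had at least 50 counts over both libraries and are called measured. In these, 6 were called higher (13.3%) and 3 lower (6.67%) in the escalating library, beside 9.33% higher and 17.1% lower among all 12213 measured genes. Their median log2 ratio was 0.23, beside 0.02 for all measured genes, and 32 of the 45 lay above 0. The genes called higher were Dclk1, Map7d2, Dpysl4, Nefh, Stmn3 and Map1lc3a, and those called lower were Tubb2b, Dcx and Map4.

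These calls depend on how the libraries are scaled. Scaled to total assigned reads, every log2 ratio moved up by 0.36, the median of the cytoskeletal genes was 0.59, and 24 were called higher and 2 lower, beside 31.5% and 9.41% of all measured genes. Set instead so that the median of 20 pan-neuronal markers was 0, every log2 ratio moved down by 0.31, the median became -0.09, and 2 were called higher and 6 lower, beside 2.47% and 30.3% of all measured genes. With DESeq2 size factors 4 were called higher and 3 lower, beside 9.21% and 17.3%, and with total reads less the 10 most abundant symbols 11 and 2, beside 14.1% in each direction. Under all 5 scalings Dclk1 and Map7d2 were called higher and Tubb2b and Dcx lower. Their log2 ratios moved with the scaling like all others, that of Dclk1 between 0.64 and 1.31, and only the calls stayed. Shares within a gene family need no scaling.

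**Figure D1:**
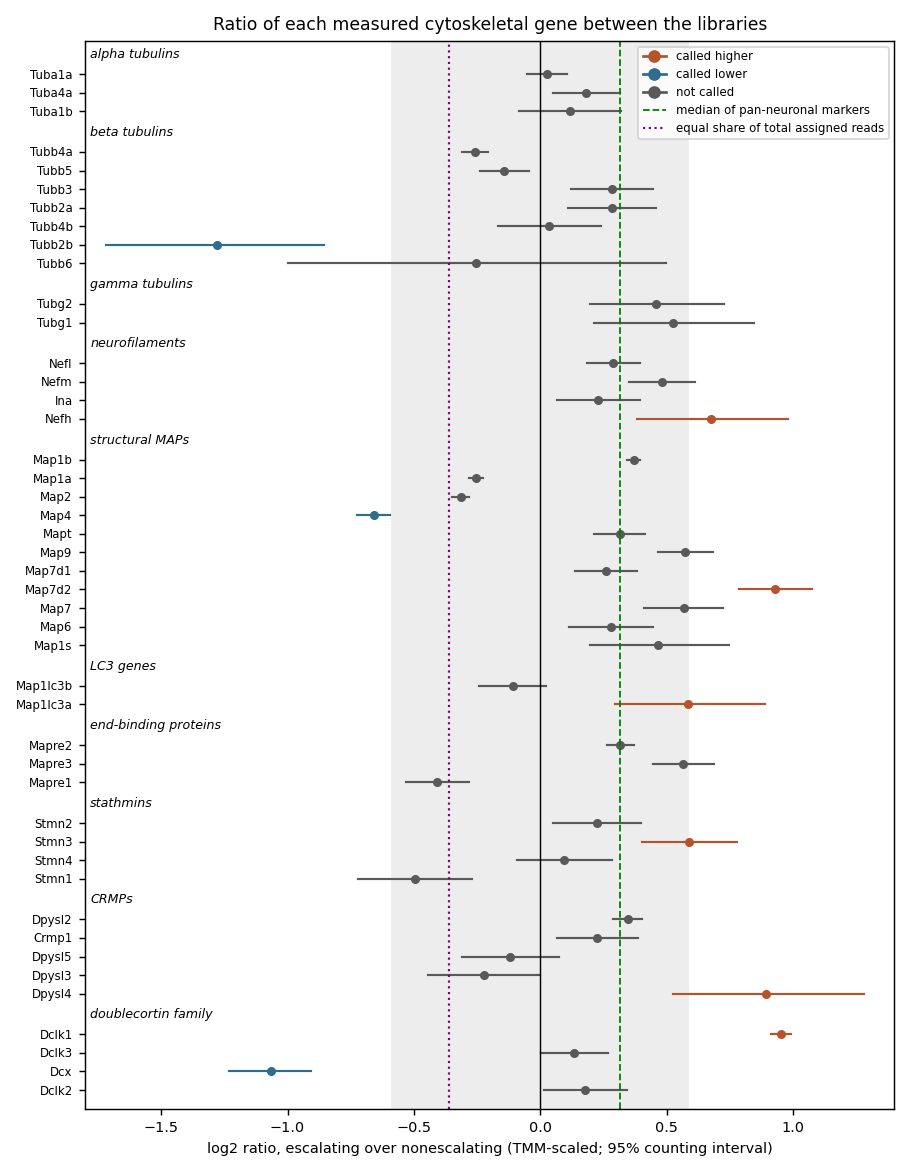
Log2 ratio of escalating over nonescalating for each of the 45 measured genes, with its 95% counting interval, grouped by role. The grey band marks ratios under 1.5-fold, the dashed line the pan-neuronal median at 0.31 and the dotted line the ratio at which a gene takes an equal share of total reads. Dclk1 and Map7d2 lie farthest to the right, Tubb2b and Dcx farthest to the left.

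Among alpha tubulins, which bind beta tubulin to form the building block of the polymer, no measured gene was called. Tuba1a, the main neuronal alpha gene (chromosome 15, 98949837 to 98953703), had 3014 counts (279 CPM) in the escalating library, against 2263 counts (274 CPM) in the nonescalating library. Its level was nearly equal in both, with a log2 ratio of 0.03 (-0.05 to 0.11). Tuba4a, which shares exonic bases with Stk16 on the opposite strand, and Tuba1b had log2 ratios of 0.18 and 0.12. With the pan-neuronal scaling the median of the 3 genes turned from 0.12 to -0.20. Tuba1a made up 63.7% of alpha tubulin counts in the escalating library (62.3 to 65.0), against 66.0% in the nonescalating library (64.4 to 67.6). The alpha genes may be hard to tell apart by reads, so these counts are uncertain. Of the 50-base windows, a chosen length, 75.5% for Tuba1a and 83.1% for Tuba1b also occur in transcripts of other annotated genes. Where the counted reads fell is not known. Tuba1c, Tuba3a and Tuba8 were read but had fewer than 50 counts in all, with between 15 and 24 counts in the escalating library, against 4 to 16 in the nonescalating library. Tuba3b and Tubal3 had no count in either library.

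Beta tubulins were led by Tubb4a, an isotype of neurons and of myelinating oligodendrocytes. It had 6464 counts (597 CPM) in the escalating library, against 5909 counts (714 CPM) in the nonescalating library. That put it slightly lower, with a log2 ratio of -0.26 (-0.31 to -0.21), a value that turned positive when scaled to total reads. Tubb3, the isotype used as a marker of neurons, had 805 counts (74.4 CPM) in the escalating library, against 506 counts (61.2 CPM) in the nonescalating library, and was not called (log2 ratio 0.28). Tubb5, Tubb4b and Tubb6 had log2 ratios of -0.14, 0.03 and -0.26. Tubb1, the platelet isotype, had 0 counts in the escalating library and 3 in the nonescalating library. Beside Tubb4a stand the markers of mature oligodendrocytes, of which 9 of 14 were called lower and none higher, with 2083 CPM in the escalating library and 4668 CPM in the nonescalating library when summed. Their part in its ratio was not tested.

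Tubb2b, an isotype prominent in the developing brain (chromosome 13, 34126748 to 34130466), was, of the 45 measured genes, the farthest below its level in the nonescalating library. It had 71 counts (6.56 CPM) in the escalating library, against 132 counts (16.0 CPM) in the nonescalating library. The library with fewer Tubb2b reads was the escalating one, where it was 2.43-fold lower (1.81 to 3.29). Its neighbour and close copy Tubb2a (chromosome 13, 34074274 to 34078007) lay on the other side of 0. Tubb2a had 711 counts (65.7 CPM) in the escalating library, against 447 counts (54.0 CPM) in the nonescalating library, which is a log2 ratio of 0.28 (0.11 to 0.46). Of the counts given to either gene, Tubb2b held 9.08% in the escalating library (7.16 to 11.3), against 22.8% in the nonescalating library (19.4 to 26.4), a share that needs no library scaling. The last 90 coding bases before the stop codon of each are shown as an example of how alike the copies are. Capitals mark bases that lie in no 25-base stretch shared with the transcript of another gene (minus strand, from the GENCODE M21 transcripts).
Tubb2a: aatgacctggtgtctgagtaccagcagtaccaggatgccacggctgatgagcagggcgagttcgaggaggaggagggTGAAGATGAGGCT
Tubb2b: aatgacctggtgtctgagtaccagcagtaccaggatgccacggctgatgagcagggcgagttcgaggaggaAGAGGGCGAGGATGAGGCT
Only 13 of the 90 bases of Tubb2a and 19 of those of Tubb2b are in capitals. Capitals do not mark differences between the copies, and the last bases in capitals are the same in both. Over the whole transcript, 49.6% of the 50-base windows of Tubb2a and 39.3% of those of Tubb2b occur in another gene, so the counts of both are uncertain.

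Both gamma tubulin genes were above 0 under every scaling, without reaching the call with TMM scaling. Tubg2, the copy more abundant in brain, had 333 counts (30.8 CPM) in the escalating library, against 185 counts (22.4 CPM) in the nonescalating library (log2 ratio 0.46, 0.20 to 0.73). Tubg1 had a log2 ratio of 0.52. They shared the gamma tubulin counts alike in both libraries, with Tubg2 at 57.8% in the escalating library (53.7 to 61.9), against 58.9% in the nonescalating library (53.3 to 64.4).

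Of the 4 neurofilament genes 1 was called higher with TMM scaling. Nefl, the light chain on which the filament is built, had 1953 counts (180 CPM) in the escalating library, against 1222 counts (148 CPM) in the nonescalating library (log2 ratio 0.29, 0.19 to 0.39). Nefm, the medium chain, and Ina, alpha-internexin, had log2 ratios of 0.48 and 0.23. Nefh, the heavy chain whose long phosphorylated tail reaches out from the filament (chromosome 11, 4938754 to 4948064), had 295 counts (27.3 CPM) in the escalating library, against 141 counts (17.0 CPM) in the nonescalating library. The escalating library was 1.60-fold higher (1.30 to 1.97). With the pan-neuronal scaling Nefh was no longer called and 2 of the 4 genes were below 0. Scaled to total assigned reads all 4 were called higher, and without the 10 most abundant symbols 2 were. As shares of neurofilament counts, Nefl held 44.6% in the escalating library (43.1 to 46.1), against 46.8% in the nonescalating library (44.9 to 48.7), and Nefh 6.74% (6.01 to 7.52) and 5.40% (4.56 to 6.34) in the same order. The intervals of each overlap, which does not show that the shares are equal. Of 8 measured markers of cortical projection neurons, whose tissue lies above the striatum, 4 were called higher and 2 lower. Their median log2 ratio was 0.50, with 5 above 0 and 3 below. The summed level of the list was 158 CPM in the escalating library and 237 CPM in the nonescalating library. In that sum Rorb alone held 1342 of the 1959 counts in the nonescalating library. Among those called higher were Slc17a7 (291 counts in the escalating library, 97 in the nonescalating library), Tbr1 (139 and 35) and Neurod6 (67 and 13), while Rorb (506 and 1342) and Fezf2 (33 and 45) were lower and Emx1 had 1 and 0 counts. Their part in the neurofilament ratios, or in those of Dclk1 and Map7d2, was not tested. Nefl and Nefm share exonic bases on opposite strands in GENCODE M21, 32.8% of those of Nefl, and the strand setting of the counting is not given in the sources used here.

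**Figure D2:**
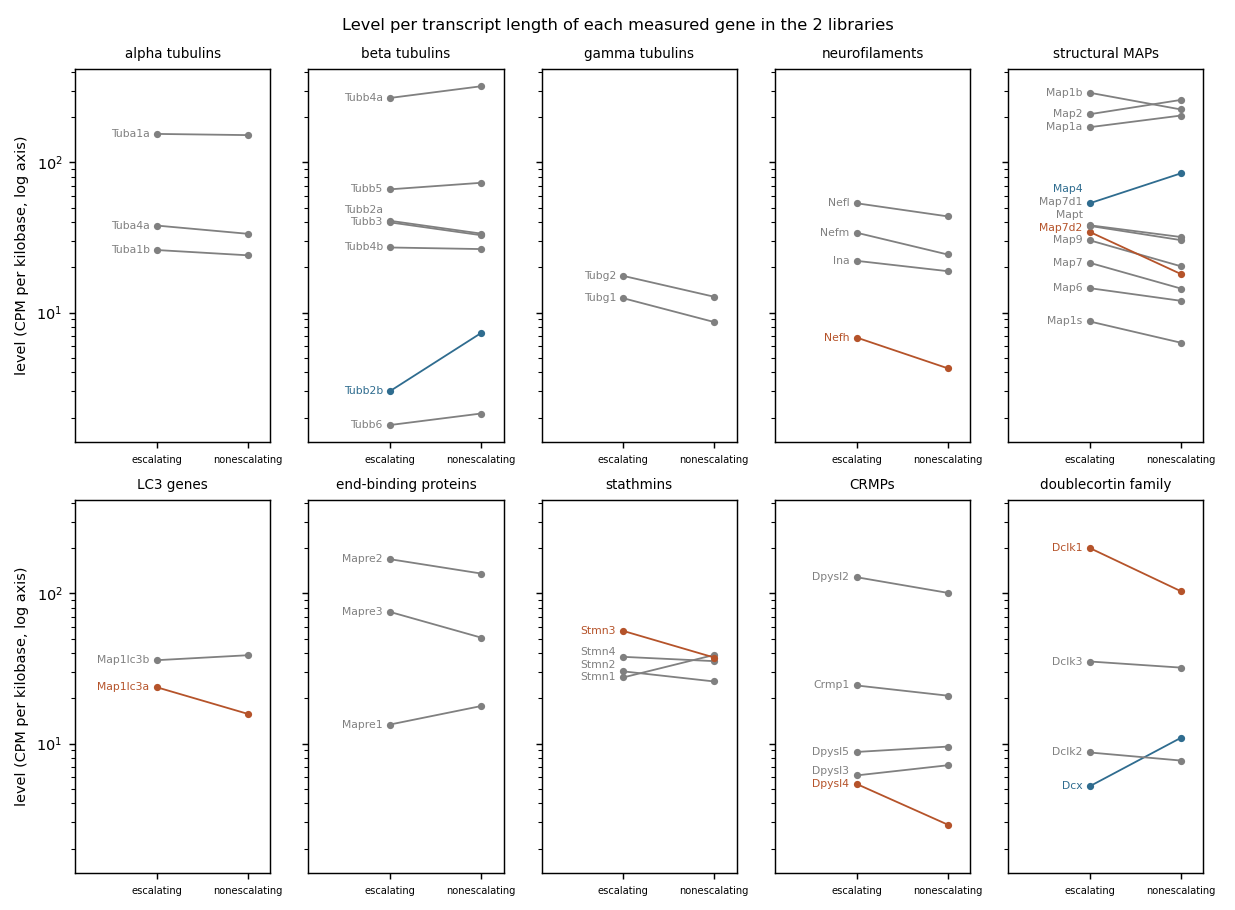
Level of each measured gene as CPM per kilobase of its longest transcript, on a log axis, with the escalating library on the left and the nonescalating library on the right of each line; orange lines were called higher, blue lines lower and grey lines neither. Map1b at 290 CPM per kilobase in the escalating library and Tubb4a at 321 in the nonescalating library are the most abundant genes.

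Structural MAPs included Map1b and Map1a, the genes with the most counts of the whole group, and they did not move alike. Map1b, the MAP of growing axons, had 37069 counts (3426 CPM) in the escalating library, against 21959 counts (2654 CPM) in the nonescalating library (log2 ratio 0.37, 0.34 to 0.39). Map1a, its relative in mature dendrites, had 21920 counts (2026 CPM) in the escalating library, against 20017 counts (2419 CPM) in the nonescalating library (log2 ratio -0.26, -0.28 to -0.23). With TMM scaling Map1b was thus the higher and Map1a the lower in the escalating library, although neither reached 1.5-fold. Scaled to total reads, Map1a turned positive and Map1b was called higher (log2 ratio 0.73). With the pan-neuronal scaling Map1b was at 0.06. Of the counts of both, Map1b held 62.8% in the escalating library (62.4 to 63.2), against 52.3% in the nonescalating library (51.8 to 52.8). Both transcripts are of nearly the same length, 11808 bases for Map1b and 11825 for Map1a.

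A like difference was seen between Map2, which marks dendrites, and Mapt, which encodes the axonal protein tau. Map2 had 14153 counts (1308 CPM) in the escalating library, against 13460 counts (1627 CPM) in the nonescalating library (log2 ratio -0.31). Mapt had 2145 counts (198 CPM) in the escalating library, against 1320 counts (160 CPM) in the nonescalating library (log2 ratio 0.31). Mapt held 13.2% of the counts of both in the escalating library (12.6 to 13.7), against 8.93% in the nonescalating library (8.48 to 9.40). Map2 turned positive when scaled to total reads, and was called lower with the pan-neuronal scaling.

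Map7d2, a MAP7 family protein that recruits kinesin-1 to microtubules (chromosome X, 159414572 to 159498757), was called higher under every scaling. It had 1366 counts (126 CPM) in the escalating library, against 549 counts (66.4 CPM) in the nonescalating library. The escalating library was 1.90-fold higher (1.72 to 2.10). Its relatives Map7 and Map7d1 had log2 ratios of 0.57 and 0.26. Map7, with Map9 at 0.57, lay just under the threshold of 0.58 on the log2 scale, and Map1s and Map6 were at 0.47 and 0.28. Map4, the MAP found in most cell types (chromosome 9, 109931460 to 110083955), was the only structural MAP called lower with TMM scaling. It had 3522 counts (325 CPM) in the escalating library, against 4253 counts (514 CPM) in the nonescalating library. That made it 1.58-fold lower in the escalating library (1.51 to 1.65). Neither total-read scaling kept this call (log2 ratio -0.30 with total reads and -0.55 without the 10 most abundant symbols). Beside Map4 stand the astrocyte and microglial markers given above, whose medians were -1.74 and -5.71. Their part in it was not tested.

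**Figure D3:**
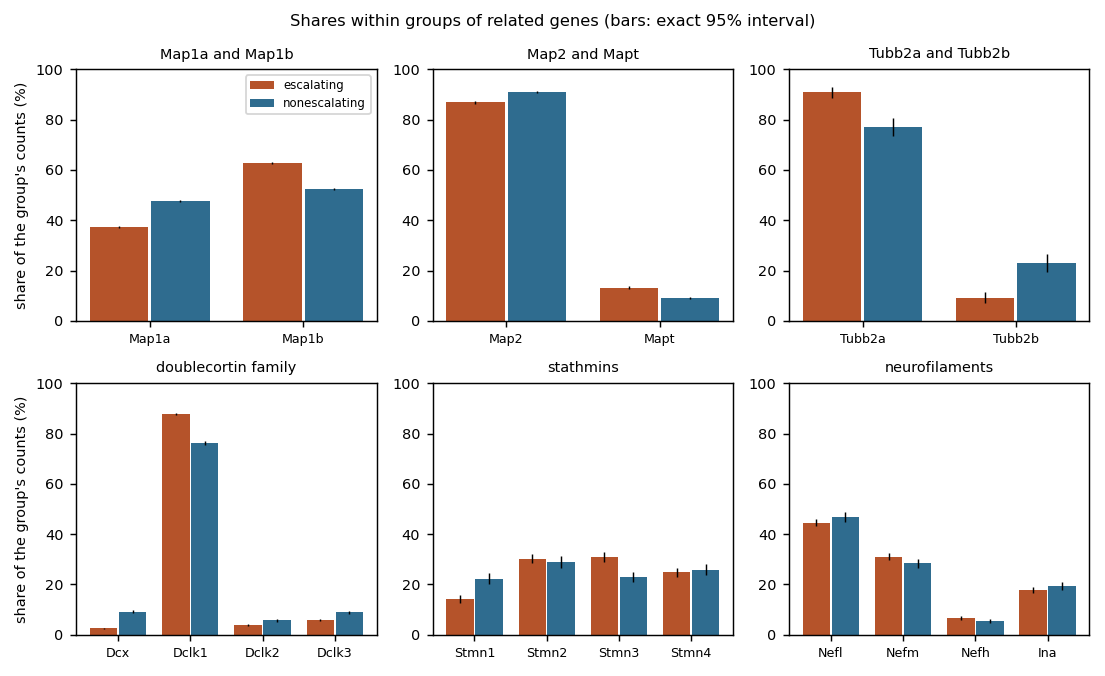
Share of the counts of 6 groups of related genes held by each member, in percent, with orange bars for the escalating and blue bars for the nonescalating library, and lines for the exact 95% interval. Map1b, Mapt, Tubb2a, Dclk1 and Stmn3 held larger shares in the escalating library. The intervals of the 4 neurofilament genes overlap between the libraries, which does not show that their shares are equal.

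The genes for LC3, named for copurifying with MAP1 and known as markers of autophagosomes, split. Map1lc3a (chromosome 2, 155276297 to 155278073) had 285 counts (26.3 CPM) in the escalating library, against 145 counts (17.5 CPM) in the nonescalating library. At a log2 ratio of 0.59 (0.29 to 0.89) it sat on the threshold, and it was not called with DESeq2 size factors. Map1lc3b, the more abundant gene, had 1022 counts (94.4 CPM) in the escalating library, against 843 counts (102 CPM) in the nonescalating library, with a log2 ratio of -0.11 (-0.24 to 0.02). Map1lc3a held 21.8% of LC3 counts in the escalating library (19.6 to 24.1), against 14.7% in the nonescalating library (12.5 to 17.0).

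None of the 3 end-binding genes was called with TMM scaling, but they spread in both directions. Mapre2, which encodes EB2, had 7339 counts (678 CPM) in the escalating library, against 4507 counts (545 CPM) in the nonescalating library (log2 ratio 0.32, 0.26 to 0.37). Mapre3 (EB3), the neuronal form, was at 0.57, and Mapre1 (EB1), found in most cell types, at -0.41, which the pan-neuronal scaling turned into a lower call. Mapre1 held 10.6% of end-binding counts in the escalating library (9.99 to 11.2), against 16.8% in the nonescalating library (15.9 to 17.7).

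Stathmins showed the same kind of spread. Stmn2, the stathmin of axon growth and repair, had 678 counts (62.7 CPM) in the escalating library, against 444 counts (53.7 CPM) in the nonescalating library (log2 ratio 0.22, 0.05 to 0.40). Stmn3, another neuronal stathmin (chromosome 2, 181306459 to 181314500), had 690 counts (63.8 CPM) in the escalating library, against 351 counts (42.4 CPM) in the nonescalating library. Its log2 ratio was 0.59 (0.40 to 0.78), on the threshold, and it was not called with DESeq2 size factors. Stmn1, abundant in dividing and newborn cells, had 316 counts (29.2 CPM) in the escalating library, against 341 counts (41.2 CPM) in the nonescalating library. Its log2 ratio of -0.50 (-0.72 to -0.27) missed the call with the main scaling and was called lower with the pan-neuronal one. As a share of stathmin counts Stmn1 was at 14.1% in the escalating library (12.7 to 15.6), against 22.2% in the nonescalating library (20.2 to 24.4). Of the 50-base windows of Stmn1, 36.5% also occur in other annotated genes, so its count is uncertain.

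In the CRMP family Dpysl2 (CRMP2), which carries tubulin to growing axon tips, dominated. It had 6254 counts (578 CPM) in the escalating library, against 3765 counts (455 CPM) in the nonescalating library (log2 ratio 0.34, 0.29 to 0.40). Dpysl4 (CRMP3; chromosome 7, 139086001 to 139102704) was the member called higher, with 207 counts (19.1 CPM) in the escalating library, against 85 counts (10.3 CPM) in the nonescalating library. The escalating library was 1.86-fold higher (1.44 to 2.43), and the call was lost by a small margin with the pan-neuronal scaling. Crmp1 was at a log2 ratio of 0.22, and Dpysl3 and Dpysl5, the CRMPs of early neuronal development, were at -0.22 and -0.12.

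The doublecortin family held both a large increase and a large decrease. Dclk1, which joins doublecortin domains to a kinase domain (chromosome 3, 55242364 to 55539068), had 17213 counts (1591 CPM) in the escalating library, against 6802 counts (822 CPM) in the nonescalating library. The escalating library was 1.93-fold higher (1.88 to 1.99). Dcx, the doublecortin of migrating young neurons (chromosome X, 143855842 to 143933311), had 511 counts (47.2 CPM) in the escalating library, against 819 counts (98.99 CPM) in the nonescalating library. It was 2.10-fold lower in the escalating library (1.87 to 2.35). Dclk2 and Dclk3 had log2 ratios of 0.18 and 0.13 and were not called. Of all doublecortin family counts, Dclk1 held 87.7% in the escalating library (87.2 to 88.2), against 76.2% in the nonescalating library (75.3 to 77.1), while Dcx held 2.60% (2.39 to 2.84) and 9.17% (8.58 to 9.79) in the same order. The deposited counts do not separate the several transcript forms of Dclk1, one of which lacks the doublecortin domains.

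Dcx, Tubb2b and Stmn1 are expressed by the newborn neurons of the subventricular zone, which borders the dorsal striatum. Of 13 markers of such cells and of their dividing precursors, 10 were measured, and 7 of these were called lower and none higher. Their median log2 ratio was -1.39 (-1.03 when scaled to total reads), and their summed level was 129 CPM in the escalating library and 233 CPM in the nonescalating library. Sox11, a transcription factor of young neurons, had 247 counts in the escalating library and 468 in the nonescalating library. Cd24a, a surface protein of neuroblasts, had 24 and 100 counts in the same order, and the proliferation gene Mki67 had 68 and 187. Neurod1 went the other way on few reads, with 10 counts in the escalating library and 0 in the nonescalating library. Sp9 and Dlx6os1, which adult striatal neurons also express, had log2 ratios of 0.06 and -0.27. Of 8 measured markers of oligodendrocyte precursors, 3 were called lower and 1 higher. Dcx, Tubb2b and Stmn1 were grouped with their values known. Other cytoskeletal genes of young neurons or growing axons were not called with TMM scaling. Among them Dpysl3 and Dpysl5 had log2 ratios of -0.22 and -0.12, and Stmn2 and Map1b of 0.22 and 0.37. Whether the cell type markers, here or those of astrocytes above, have a part in the lower Dcx and Tubb2b was not tested.

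Promoters are shown for Dclk1, Map7d2 and Dcx, the genes with the largest ratios in each direction that have an entry in the RefSeq promoter table (GRCm38.p6, the same build as mm10). Capitals mark matches, on either strand, to 5 motifs that do not overlap one another in these stretches. The TATA box was searched as TATAAA, the GC box to which Sp1 binds as GGGCGG, the box bound by the factor NF-Y as CCAAT, the E-box of basic helix-loop-helix factors as CACGTG, and the cyclic AMP response element by its full palindrome TGACGTCA. The sequence runs up to the outermost annotated start, at chr3:55242114-55242363 (plus strand), chrX:159414322-159414571 (plus strand) and chrX:143933312-143933469 (minus strand).
Dclk1: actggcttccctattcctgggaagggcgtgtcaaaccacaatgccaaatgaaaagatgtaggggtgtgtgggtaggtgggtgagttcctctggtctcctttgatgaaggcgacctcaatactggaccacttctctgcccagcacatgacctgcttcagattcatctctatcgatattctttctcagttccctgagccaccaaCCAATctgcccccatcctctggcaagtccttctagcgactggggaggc
Map7d2: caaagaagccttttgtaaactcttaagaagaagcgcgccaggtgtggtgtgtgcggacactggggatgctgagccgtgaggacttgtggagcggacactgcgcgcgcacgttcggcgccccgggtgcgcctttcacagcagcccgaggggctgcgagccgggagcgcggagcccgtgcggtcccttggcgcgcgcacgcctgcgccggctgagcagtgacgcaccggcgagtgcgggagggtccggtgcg
Dcx: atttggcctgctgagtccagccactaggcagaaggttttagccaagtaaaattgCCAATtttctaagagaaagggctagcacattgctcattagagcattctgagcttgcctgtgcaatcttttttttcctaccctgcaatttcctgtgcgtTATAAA
The stretch before Map7d2 is 69.2% G and C with 32 CG pairs, that before Dclk1 52.4% with 4, and that before Dcx 42.4% with 1. Motif shares were counted over whole windows, from 250 bases before the start to 50 after it, unlike the upstream stretches shown. Of the 51 genes 34 had an entry, and 22 of their first windows held a GC box (64.7%), beside 35.9% of the first windows of all 27025 genes. The cytoskeletal genes' upstream bases were also richer in G and C, with a median of 60.8% beside 52% for all genes, and the part of this in the matches was not tested. None of the 3 genes called higher that had an entry held a GC box, and 1 of the 2 called lower did. These are too few genes to compare. A CCAAT match was found in 13 of the 34 (38.2%), beside 37.9% of all genes, and a TATA box in 6 (17.6%), beside 14.2%. The E-box was found in 3 (8.82%), beside 7.24% of all genes, and the cyclic AMP response element in 1 (2.94%), beside 1.88%.

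Transcript length moved with the ratios across all genes, which are not independent replicates. The median log2 ratio was 0.09 for measured genes with transcripts up to 2658 bases and -0.07 for those of 4389 bases or more, and 13.3% of these short and 4.40% of these long genes were called higher. Cytoskeletal genes had medians of 0.11 among the short (18 genes), 0.32 between these lengths (13 genes) and 0.03 among the long (14 genes). Dclk1, Map1b and Map9 were among those above 0 and Map1a, Map2, Map4, Mapre1 and Dcx among those below 0 in the long genes. The part of length in any single ratio was not tested.

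**Figure D4:**
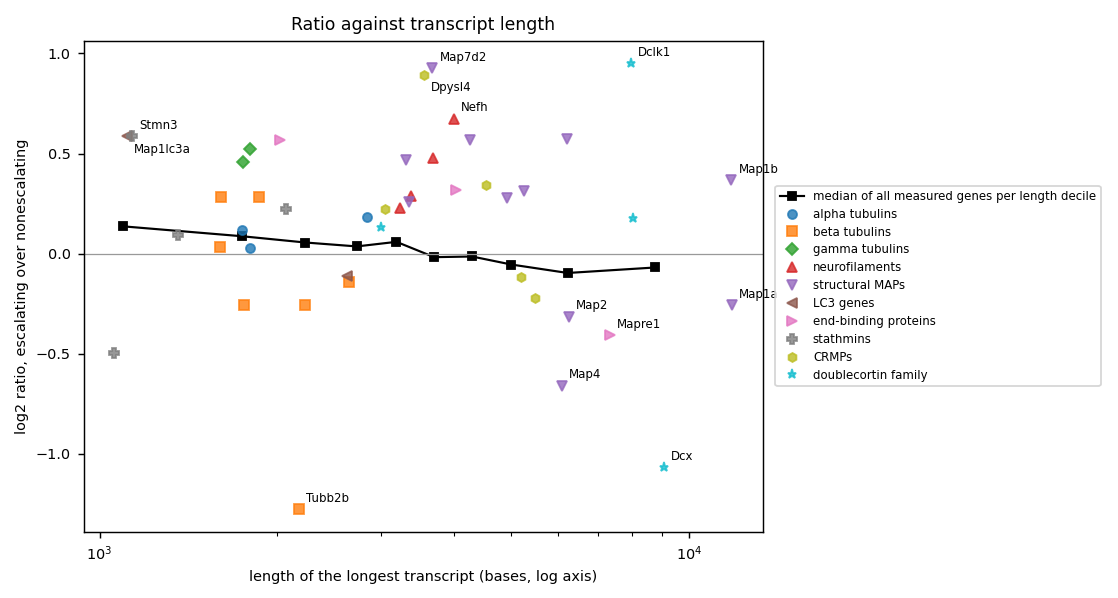
Log2 ratio of escalating over nonescalating against the length of the longest transcript in bases, on a log axis, for each measured gene, with black squares for the median of all measured genes in each of 10 length bins. The black line runs from 0.14 in the shortest bin to -0.07 in the longest, while the long genes Dclk1 and Dcx lie far above and below it.

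Other genes of the microtubule pathway were read from lists, whose called counts stand beside 9.33% higher and 17.1% lower among all measured genes. Of 19 measured tubulin folding cofactors 2 were called higher, near that background, and 1 lower, with a median log2 ratio of 0.19. Arl2, a small GTPase that works with the cofactors, had 214 counts in the escalating library and 81 in the nonescalating library and was 2.02-fold higher, and Vbp1, a prefoldin subunit, had 98 and 122 counts in the same order and was 1.63-fold lower. The prefoldin gene Pfdn6 was 1.51-fold higher. Of 17 measured enzymes that modify tubulin 3 were called higher and 1 lower (median -0.02). Agbl4, which trims glutamate chains from tubulin tails, had 51 counts in the escalating library and 17 in the nonescalating library and was 2.29-fold higher, and Ttll1, a subunit of a glutamylating complex, was 1.59-fold higher. Agbl5, another deglutamylase, was 1.54-fold higher. Vash1, which cuts the last tyrosine from alpha tubulin, had 51 and 77 counts in the same order and was 1.97-fold lower.

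Severing enzymes split as well, with 2 of 6 measured genes called higher and 1 lower (median 0.20). The katanin-like gene Katnal2 had 133 counts in the escalating library, against 33 in the nonescalating library, and was 3.08-fold higher, while Spast, the spastin gene, had 497 and 600 in the same order and was 1.58-fold lower. None of 18 genes for plus-end and minus-end proteins and none of 7 genes of the gamma tubulin ring complex was called, with medians of 0.12 and 0.37. Of 11 kinases and regulators that act on tau and other MAPs, Mark4 was 1.53-fold higher and Brsk1 1.64-fold lower (median 0.12). With the pan-neuronal scaling the medians of these lists other than that of the ring complex were below 0.

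The spectrin and ankyrin scaffold, which lies under the axon membrane and ties it to microtubules, had 5 of 10 genes called lower and none higher. Its median log2 ratio was -0.54, or -0.18 when scaled to total reads, where 2 were lower and 1 higher. Sptbn1 had 10427 counts in the escalating library and 16655 in the nonescalating library and was 2.09-fold lower. Ank3 (ankyrin-G), which builds the axon initial segment, had 11988 and 17080 in the same order and was 1.86-fold lower, and Ank2 was 1.70-fold lower. Intermediate filament genes other than neurofilaments had 3 of 6 called lower and 1 higher. Gfap, Vim and Nes, the filaments of astrocytes and progenitors, were 2.94-fold, 2.51-fold and 3.27-fold lower, and Lmna, a nuclear lamin, was 2.18-fold higher. Pan-neuronal markers had 3 of 20 called higher and 1 lower, with a median of 0.31, so the cytoskeletal median of 0.23 lay between it and that of all measured genes.

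**Figure D5:**
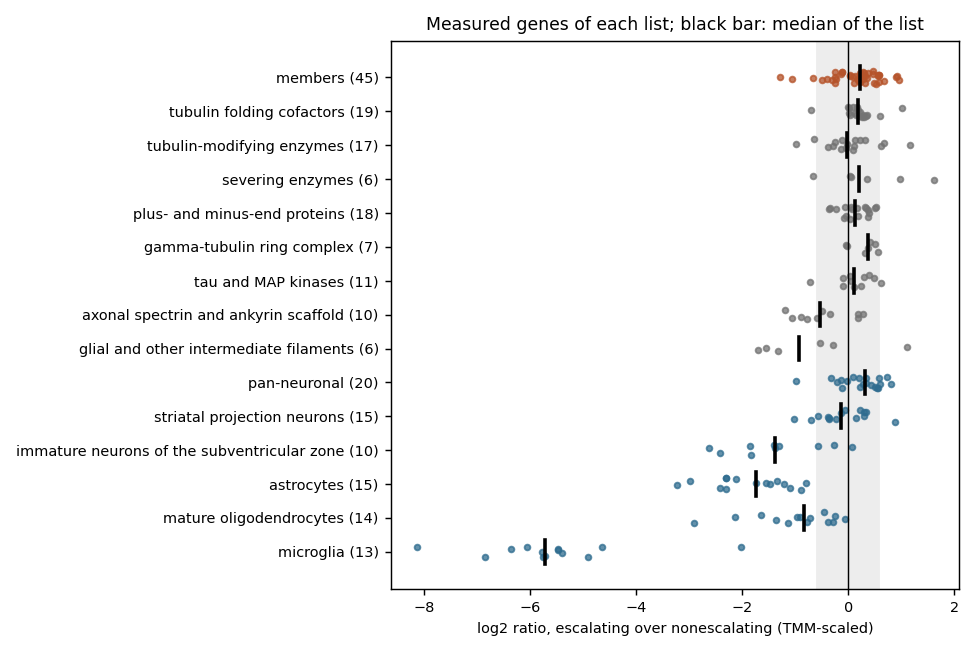
Log2 ratio of escalating over nonescalating of each measured gene in the cytoskeletal group and in other lists, with a black bar at each median, the number of genes in brackets and a grey band for ratios under 1.5-fold. The cytoskeletal genes centre on 0.23 near the pan-neuronal markers at 0.31, and the markers of immature neurons, astrocytes and microglia lie at -1.39, -1.74 and -5.71.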

How the data were processed

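RNA of 2 libraries was analysed, 1 from the escalating and 1 from the nonescalating group, assigned by their titles. The authors used STAR 2.0.0e, HTSeq and the mm10 build, per the submitters' processing notes; no strand setting, annotation or HTSeq version is named there. The authors' files hold raw counts for each gene symbol. Rows that name no gene were left out of library sizes; reads in no gene were 28.6% of those listed in the escalating library, against 18.1% in the nonescalating one, and reads with several alignments 9.53% and 7.78% in the same order. TMM factors (edgeR 4.0.16, R 4.3.3) were 1.13 and 0.882 in the same order, and no test was run. Log2 ratios used a pseudocount of 0.5, folds none. A count of 0 allows 3 counts, or 0.277 CPM in the escalating library, against 0.363 CPM in the nonescalating one. The minimum for a measured gene was 50 counts in all. Genes, lists and alternatives were chosen with earlier results of these data known. Named in full are called genes and the most abundant of each role, and up to 4 called genes of each pathway list, some of which are not reported here; others serve to describe spread or shares and were picked after their values were seen, as were the promoters and list markers shown. Positions, longest basic transcripts, exonic overlaps and shared windows came from GENCODE M21 (mm10), which matched 71.2% of symbols and 92.7% of measured genes; promoters came from RefSeq (GRCm38.p6). The interval calculation was checked on simulated Poisson counts with the library sizes known. That check does not cover scaling error or the spread between replicates. Alternatives were 4 other scalings (one with DESeq2 1.42.0 size factors), a pseudocount of 5, count minimums of 10 and 1, a 2-fold call and a 99% interval. Python 3.11.15 with pandas 2.3.3 and scipy 1.17.1 did the rest.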

Additional observations from a re-analysis of the deposited data

How the results depend on the processing

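Scaling moved the results most. The count of cytoskeletal genes called higher was 6 with TMM, 24 with total assigned reads, 11 with total reads less the 10 most abundant symbols and 2 with the pan-neuronal median at 0, and 0 with a 2-fold call. The count called lower was 3 with TMM and 6 with the pan-neuronal median at 0. The median log2 ratio of 0.23 became 0.59 with total assigned reads and -0.0856 with the pan-neuronal median at 0; the cause is the shift of the scale itself. Over all measured genes 1140 were higher and 2091 lower with TMM, 3850 and 1149 with total reads, 1722 and 1723 without the 10 most abundant symbols, and 302 and 3697 with the pan-neuronal scaling. With the 2-fold call 246 were higher and 1091 lower. DESeq2 size factors, a pseudocount of 5, the count minimums and the 99% interval kept all counts within 1.5 times those above for the cytoskeletal genes. None of the 9 called genes changed sign under the scalings and the pseudocount tried. No paired analysis was possible because each group had 1 library. For the same reason no library could be left out. Depth limits Tubb6 (34 and 31 counts in the escalating and nonescalating library) and the 6 genes under 50 counts, for which a 1.5-fold difference was not detectable.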
